A study of Mus musculus with 6 samples.

Results

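The genes described here encode the TGF-beta system of the colonic lamina propria: the ligands Tgfb1, Tgfb2 and Tgfb3, the receptors Tgfbr1, Tgfbr2 and Tgfbr3, the integrin chains Itgav and Itgb8, which release the active ligand, and the signalling genes Smad3 and Smad7. They were chosen by name, and all 10 symbols were found among the 55401 gene IDs of the files. The libraries held RNA of lamina propria cells, isolated from the colon of male mice aged 5 to 6 weeks and sequenced in bulk. All mice were Apc Min/+, heterozygous for a truncated form of the tumour suppressor Apc, a genotype that forms intestinal adenomas. In 3 libraries the mice had received atorvastatin, a statin that lowers cholesterol synthesis, at 20 mg/kg by gavage on alternate days, for a duration the labels do not state, and in the other 3 libraries the vehicle, 2% Tween 80, by the same route. Whether each library stands for its own mouse is not stated in the labels, and the p-values below rest on library-to-library spread that could be technical. No mice without the mutation, and no isolated cell types, are among the libraries.

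TGF-beta is secreted in a latent form, held by its own propeptide and tethered to the matrix or to a cell surface. The integrin αvβ8 binds the propeptide and frees the ligand, which brings the type II receptor and the type I receptor together, and the type I receptor phosphorylates Smad3. In the gut the pathway is known for restraining T cells, for inducing regulatory T cells and the switch of B cells to IgA, and for driving matrix production by fibroblasts. Smad7 is a feedback inhibitor that TGF-beta itself induces and that blocks the type I receptor.

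The propeptides differ in the integrin-binding site Arg-Gly-Asp, and the coding sequence around it is shown because Itgav and Itgb8 act through it. An in-frame stretch of arginine, glycine and aspartate codons was found 1 time in Tgfb1, 1 time in Tgfb3 and 0 times in Tgfb2. The stretches below lie in exon 5 of 7 of each gene's transcript in GENCODE (GRCm38), at chr7:25697125-25697195 on the plus strand for Tgfb1, chr12:86062120-86062199 on the minus strand for Tgfb3 and chr1:186630708-186630787 on the minus strand for Tgfb2. Capitals mark the Arg-Gly-Asp codons in Tgfb1 and Tgfb3 and the codons aligned with them in Tgfb2.
Tgfb1: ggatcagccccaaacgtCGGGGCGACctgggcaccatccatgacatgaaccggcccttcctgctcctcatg
Tgfb3: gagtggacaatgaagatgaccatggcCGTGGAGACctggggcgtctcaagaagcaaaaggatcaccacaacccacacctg
Tgfb2: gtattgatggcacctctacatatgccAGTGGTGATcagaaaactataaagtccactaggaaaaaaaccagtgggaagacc

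Promoters are shown for the most abundant ligand gene, for Tgfb2, whose level was more variable between vehicle libraries, and for Tgfbr1, whose groups did not overlap. Each line is the 250 bases before the start of the gene (RefSeq, GRCm38.p6): chr7:25686752-25687001, plus strand, for Tgfb1, chr1:186705990-186706239, minus strand, for Tgfb2 and chr4:47352972-47353221, plus strand, for Tgfbr1. Capitals mark TATAAA, the letters of a TATA box, and GGGCGG, the letters of a GC box, on either strand.
Tgfb1: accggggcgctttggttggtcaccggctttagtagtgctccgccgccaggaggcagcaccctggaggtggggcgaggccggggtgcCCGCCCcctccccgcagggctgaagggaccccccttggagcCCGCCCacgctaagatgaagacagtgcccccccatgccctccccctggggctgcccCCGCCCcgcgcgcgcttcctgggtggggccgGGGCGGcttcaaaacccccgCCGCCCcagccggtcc
Tgfb2: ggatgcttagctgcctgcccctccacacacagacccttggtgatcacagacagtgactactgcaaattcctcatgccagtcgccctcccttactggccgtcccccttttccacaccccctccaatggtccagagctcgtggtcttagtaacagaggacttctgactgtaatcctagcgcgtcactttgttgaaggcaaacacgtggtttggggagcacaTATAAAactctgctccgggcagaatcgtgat
Tgfbr1: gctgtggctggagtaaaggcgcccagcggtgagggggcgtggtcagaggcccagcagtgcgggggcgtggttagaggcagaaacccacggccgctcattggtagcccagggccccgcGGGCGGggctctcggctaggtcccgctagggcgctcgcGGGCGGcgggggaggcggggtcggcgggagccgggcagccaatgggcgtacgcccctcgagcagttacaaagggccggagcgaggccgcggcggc
The window of Tgfb1 held 5 GC boxes and that of Tgfbr1 held 2, while the window of Tgfb2 held 0. TATAAA was found 1 time in the window of Tgfb2 and 0 times in the windows of Tgfb1 and Tgfbr1. Of 32851 windows of the same length in the RefSeq table, 32.7% held a GC box and 12.4% held TATAAA. The SMAD box CAGAC, searched on both strands, was present in 42.2% of the windows. It was found 2 times in the window shown for Tgfb2 and 0 times in those shown for Tgfb1 and Tgfbr1. A second RefSeq window of Tgfbr1, chr4:47385966-47386215 on the plus strand, held 1 SMAD box and 0 GC boxes and is not shown. The Tgfb2 window overlaps an exon of an antisense gene.

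Values are FPKM (fragments per kilobase of transcript, scaled to library size) as deposited, so levels of different genes can be set side by side within a library. Summed FPKM were 355787 to 456064 in the atorvastatin libraries and 407016 to 421410 in the vehicle libraries, and the number of fragments behind them is unknown. In bulk RNA, fewer cells of a type and less RNA per cell cannot be told apart. Markers of lamina propria cells were present in every library: the summed FPKM of 8 B cell markers, led by Cd79a and Cd79b, was 281 to 305 with atorvastatin and 351 to 470 with vehicle. The 11 macrophage markers, led by Lyz2 and C1qb, summed to 218 to 237 and 132 to 281 FPKM, and the 8 fibroblast markers, led by Dcn and Dpt, to 1060 to 1372 and 1094 to 1443 FPKM. The 9 epithelial markers, led by Epcam and Krt8, summed to 21.8 to 47.0 FPKM with atorvastatin and 36.6 to 48.0 FPKM with vehicle. Vehicle library 3 stood apart from the rest, with a mean Pearson's r to the other libraries of 0.944 across genes, against 0.957 to 0.961 for the others.

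Over the 6 libraries Tgfbr2 had the highest level, 38.3 ± 2.86 FPKM (SD, n = 6), followed by Tgfb1 with 33.9 ± 3.17 FPKM (SD, n = 6). Both lay above every other gene of the set in each library, with 91.2% and 90.1% of the tested genes below them. Tgfbr2 exceeded Tgfb1 in 6 of 6 libraries, although their ranges over libraries overlapped. Smad3 (17.5 ± 1.99 FPKM), Smad7 (16.1 ± 9.16 FPKM), Tgfbr3 (14.7 ± 1.01 FPKM) and Tgfbr1 (14.6 ± 2.54 FPKM) followed with overlapping ranges, and neighbours in that order exchanged places between libraries. The place of Smad7 holds for the mean over both groups: with atorvastatin it averaged 23.0 FPKM, above Smad3, and with vehicle 9.10 FPKM, below Tgfb3 at 10.1 FPKM. Next came Tgfb3 with 10.1 ± 0.455 FPKM and Tgfb2 with 8.07 ± 1.77 FPKM. Tgfbr1 lay above Tgfb3, Tgfb3 above Tgfb2 and Tgfb2 above Itgav in all 6 libraries, but the ranges of these neighbours overlapped. Itgav averaged 5.60 ± 1.29 FPKM, close to the middle of all tested genes, with 50.5% of them below it. Itgb8 had the lowest level, 0.848 ± 0.165 FPKM, with no overlap with Itgav.

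**Figure D1:**
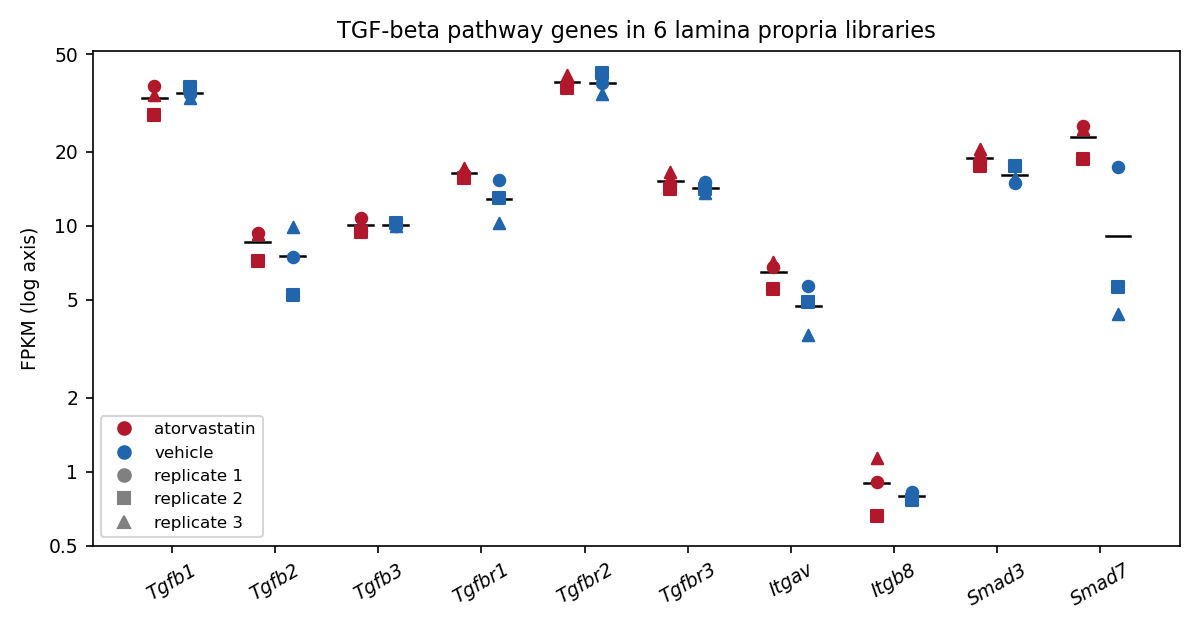
FPKM on a log axis of the 10 genes in each atorvastatin library (red, left) and each vehicle library (blue, right), with the marker shape giving the replicate number and the bar the mean of 3 libraries. The vehicle libraries of Smad7 spread between 4.36 and 17.28 FPKM, below the 18.76 to 25.43 FPKM of the atorvastatin libraries, while Tgfb3 stayed between 9.40 and 10.80 FPKM in all 6 libraries.

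The comparison in the design is atorvastatin against vehicle. No gene of the TGF-beta set passed the test over all genes, and 0 of the 13590 genes tested (0%) did so at a false discovery rate of 0.05 in limma on log2(FPKM + 1). At an unadjusted p under 0.05 in limma there were 974 genes (7.17%), 425 of them higher (3.13%) and 549 lower (4.04%), and Smad7 was the only gene of the set among them. With libraries weighted by quality Smad7 was no longer among them (limma adjusted p = 0.284), and Smad3 was the only gene of the set that was (limma adjusted p = 0.102). In that weighted fit 3413 of the 13590 genes had an unadjusted p under 0.05 in limma, so 1 gene of the set does not stand out. Of the 10 genes, 9 were above 1 FPKM in all 6 libraries and were tested, and Itgb8 fell below the filter of 1 FPKM in at least 3 libraries. Among the 9, 8 had a positive difference and 1 a negative difference, with a median of 0.20 on the log2(FPKM + 1) scale, while 47% of all tested genes had a positive difference and their median was -0.02. The 8 include Tgfb3 and Tgfbr2, with differences of 0.00 and 0.01. Without vehicle library 2 the median of the 9 was 0.0825, with 7 positive. With libraries weighted by quality it was 0.13, with 9 positive. The positive count was 6 without atorvastatin library 3 or without vehicle library 3, and 9 without atorvastatin library 2. The groups did not overlap in Smad7 and Tgfbr1, both higher with atorvastatin, a pattern found in 5.53% of all tested genes.

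**Figure D2:**
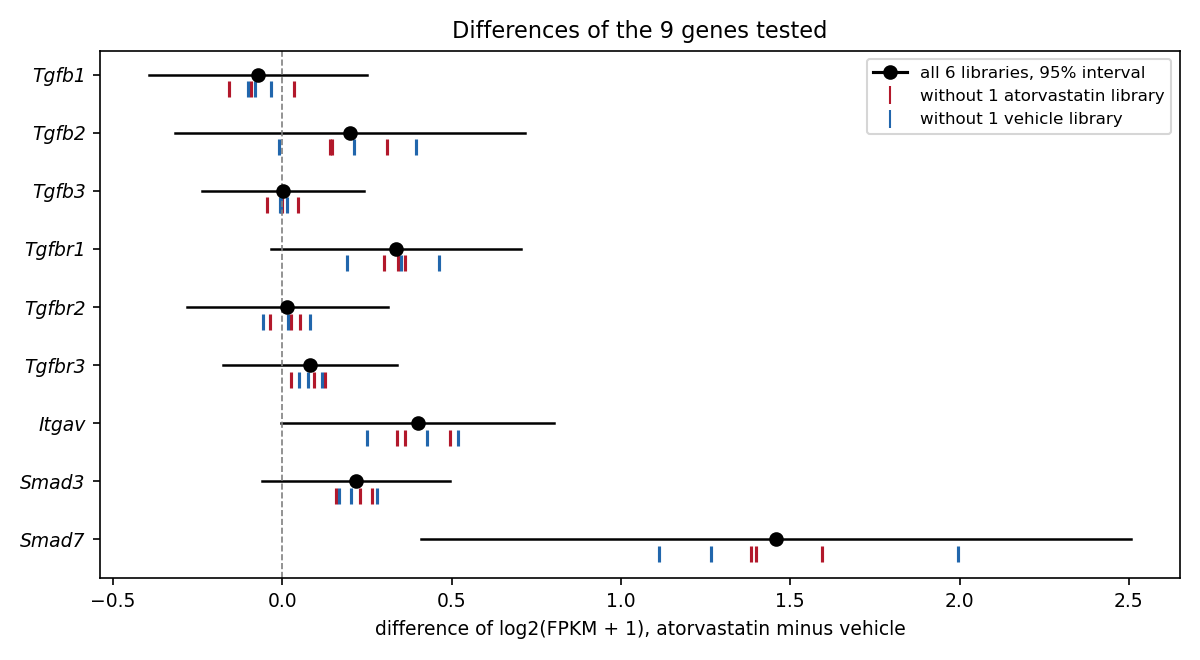
Difference of log2(FPKM + 1), atorvastatin minus vehicle, of the 9 tested genes with its 95% interval in limma (black). Tick marks give the difference with 1 atorvastatin library (red) or 1 vehicle library (blue) left out. The interval lies above 0 for Smad7 alone (0.41 to 2.51), and that of Itgav reaches just below 0.

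Of the ligands, Tgfb1 is the isoform mainly made by immune cells. Tgfb1 (ENSMUSG00000002603, chr7:25687002-25705077) had 37.18, 28.34 and 33.92 FPKM in the atorvastatin libraries, against 34.24, 36.72 and 33.20 FPKM in the vehicle libraries. Atorvastatin library 2 was the lowest and atorvastatin library 1 the highest, so the vehicle values lay inside the range of the atorvastatin values. The difference was -0.07 on the log2(FPKM + 1) scale (SE 0.14, 95% interval -0.39 to 0.25, limma adjusted p = 0.905). Tgfb2 (ENSMUSG00000039239, chr1:186622792-186705989), an isoform with a large part in development, had 9.34, 7.21 and 9.26 FPKM with atorvastatin, against 7.47, 5.23 and 9.91 FPKM with vehicle. Both the highest and the lowest value were in the vehicle group, and the difference was 0.20 (SE 0.22, 95% interval -0.32 to 0.72, limma adjusted p = 0.827). Without vehicle library 2 it was -0.01. Tgfb3 (ENSMUSG00000021253, chr12:86056745-86079041), whose propeptide carries the same integrin site as that of Tgfb1, had 10.80, 9.40 and 10.10 FPKM with atorvastatin, against 9.99, 10.27 and 9.98 FPKM with vehicle. Its SD over the 6 libraries, 0.455 FPKM, was the smallest of the set relative to the mean, and its difference was 0.00 (SE 0.10, 95% interval -0.24 to 0.24, limma adjusted p = 1.00).

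Summed over the ligands, the level was 51.9 ± 6.31 FPKM (SD, n = 3) with atorvastatin and 52.3 ± 0.702 FPKM (SD, n = 3) with vehicle. Tgfb1 made up 63.9% ± 0.924 (SD, n = 3) of that sum with atorvastatin and 66.4% ± 3.89 (SD, n = 3) with vehicle. Tgfb2 made up 16.6% ± 0.712 and 14.4% ± 4.33, and Tgfb3 19.6% ± 1.16 and 19.3% ± 0.437, each as SD over 3 libraries. In an exact two-sided permutation test over libraries the shares had p = 0.4 for Tgfb1, p = 0.5 for Tgfb2 and p = 0.8 for Tgfb3, where the smallest p that 3 against 3 libraries allow is 0.1.

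Among the receptors, Tgfbr1 encodes the type I receptor kinase that phosphorylates Smad3. Tgfbr1 (ENSMUSG00000007613, chr4:47353222-47414931) had 16.19, 15.66 and 17.18 FPKM in the atorvastatin libraries, against 15.43, 13.02 and 10.27 FPKM in the vehicle libraries. Every atorvastatin library lay above every vehicle library, although the gap between atorvastatin library 2 and vehicle library 1 was small and vehicle library 3 was the lowest. The difference was 0.33 on the log2(FPKM + 1) scale (SE 0.16, 95% interval -0.03 to 0.70, limma adjusted p = 0.696), and it was 0.19 without vehicle library 3. Weighting the libraries by their quality brought it to 0.13. Scaling the libraries to equal sums made the groups of Tgfbr1 overlap. Tgfbr2 (ENSMUSG00000032440, chr9:116084293-116175360), the type II receptor that binds the ligand first, had 37.75, 36.37 and 41.25 FPKM with atorvastatin, against 38.12, 41.91 and 34.40 FPKM with vehicle. The groups overlapped widely, and the difference was 0.01 (SE 0.12, 95% interval -0.28 to 0.31, limma adjusted p = 0.984). Tgfbr3 (ENSMUSG00000029287, chr5:107106570-107289629) encodes betaglycan, a coreceptor that presents the ligand, in particular TGF-beta2, to the type II receptor. It had 14.86, 14.19 and 16.49 FPKM with atorvastatin, against 15.05, 14.16 and 13.62 FPKM with vehicle, a difference of 0.08 (SE 0.11, 95% interval -0.18 to 0.34, limma adjusted p = 0.865).

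Itgav (ENSMUSG00000027087, chr2:83724397-83806916) encodes the alpha-v chain, which pairs with several beta chains. It had 6.83, 5.52 and 7.10 FPKM in the atorvastatin libraries, against 5.68, 4.88 and 3.59 FPKM in the vehicle libraries. Vehicle library 1 lay above atorvastatin library 2, so the groups overlapped, and vehicle library 3 was again the lowest. The difference was 0.40 (SE 0.17, 95% interval -0.00 to 0.80, limma adjusted p = 0.692). It was 0.25 without vehicle library 3 and 0.24 with libraries weighted by quality. Itgb8 (ENSMUSG00000025321, chr12:119158022-119238802) encodes the beta chain that pairs with alpha-v alone and is known on dendritic cells, regulatory T cells and epithelial cells. It had 0.91, 0.66 and 1.14 FPKM with atorvastatin, against 0.83, 0.77 and 0.78 FPKM with vehicle. The vehicle values lay inside the range of the atorvastatin values. The difference of the means of log2(FPKM + 1) was 0.08, with an exact two-sided permutation p = 0.6, and the sign turned without atorvastatin library 3 (-0.01). Dendritic cell markers, 12 genes led by Ccr7 and Irf8, summed to 174 to 188 FPKM with atorvastatin and 192 to 246 FPKM with vehicle. Ccr7 alone had 111 to 130 and 129 to 183 FPKM, and the groups overlapped in each of the 11 markers tested. The 6 regulatory T cell markers, led by Ctla4 and Tnfrsf18, summed to 84.2 to 89.2 and 86.5 to 92.1 FPKM. The part of either cell type in the level of Itgb8 was not tested.

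Smad3 (ENSMUSG00000032402, chr9:63646767-63757994) encodes the transcription factor activated by the type I receptor. Smad3 had 18.47, 17.55 and 20.48 FPKM in the atorvastatin libraries, against 14.91, 17.58 and 15.71 FPKM in the vehicle libraries. Vehicle library 2 lay barely above atorvastatin library 2, so the groups overlapped, and the other vehicle libraries lay below all atorvastatin libraries. The difference was 0.22 (SE 0.12, 95% interval -0.06 to 0.50, limma adjusted p = 0.699). With libraries weighted by quality it was 0.31, with an unadjusted p = 0.00886 and an adjusted p = 0.102 in limma. In that weighted fit 3413 of the 13590 genes tested had an unadjusted p under 0.05 in limma.

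Smad7 showed the largest difference of the set. Smad7 (ENSMUSG00000025880, chr18:75367529-75395935) had 25.43, 18.76 and 24.87 FPKM in the atorvastatin libraries, against 17.28, 5.65 and 4.36 FPKM in the vehicle libraries. The atorvastatin values lay close together, while the vehicle group split into vehicle library 1, just below the atorvastatin range, and vehicle libraries 2 and 3, far below it. The means were 23.0 ± 3.70 FPKM (SD, n = 3) with atorvastatin and 9.10 ± 7.12 FPKM (SD, n = 3) with vehicle. The difference was 1.46 on the log2(FPKM + 1) scale (SE 0.44, 95% interval 0.41 to 2.51), with an unadjusted p = 0.0135 and an adjusted p = 0.692 in limma. The exact permutation test gave p = 0.1, the smallest it can give here. Leaving out single libraries gave differences between 1.11, without vehicle library 3, and 2.00, without vehicle library 1. In limma with vehicle library 1 left out the adjusted p was 0.163. With libraries weighted by quality the difference was 0.65 (unadjusted p = 0.102 in limma), and with equal sums per library the groups overlapped, at a difference of 1.52.

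**Figure D3:**
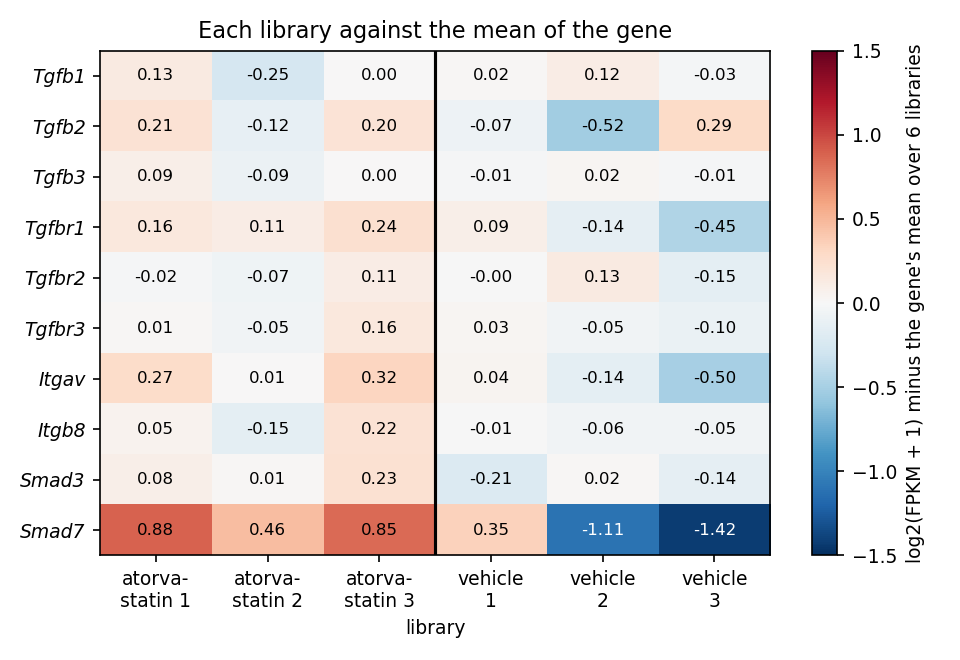
Heat map of log2(FPKM + 1) of each gene in each library minus the mean of that gene over 6 libraries, atorvastatin libraries left of the line and vehicle libraries right of it. Smad7 spans the widest range, with 0.88, 0.46 and 0.85 in the atorvastatin libraries and 0.35, -1.11 and -1.42 in the vehicle libraries.

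Read by library, all 10 genes lay above their own mean in atorvastatin library 3 and 9 in atorvastatin library 1, but only 4 in atorvastatin library 2. Among the vehicle libraries 5 genes lay above their mean in library 1, 4 in library 2 and 1 in library 3. Vehicle library 3 was the lowest library for 5 of the 10 genes and atorvastatin library 2 for 3 of them. Atorvastatin library 2 also had the largest sum of FPKM and the highest level of the plasma cell markers, whose 7 genes, led by Igkc and Igha, summed to 113125 FPKM there, against 51379 to 81653 FPKM in the other libraries. With libraries scaled to equal sums without immunoglobulin and mitochondrial genes, the groups of Itgav and Smad3 were separate too. There 4 genes of the set were higher with no overlap, and with equal sums over all genes 0 were. The share of all tested genes with no overlap was not taken under either scaling, so these counts show nothing particular to the set. Both scalings moved the median difference of all genes from -0.02 to 0.04. The part of immunoglobulin RNA in the differences of the set was not tested.

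Genes known to respond to tissue handling were followed beside the set. The 10 immediate early and heat shock genes, led by Hspa1b and Hspa1a, summed to 6549 to 9083 FPKM in the atorvastatin libraries and 5827 to 5948 FPKM in the vehicle libraries. Hspa1a and Hspa1b are near-identical copies whose reads may have been split between them. All of the 10 had positive differences, with a median of 0.39. At an unadjusted p under 0.05 in limma 1 of them was higher (3.13% of all genes), and 4 were higher with no overlap (5.53% of all genes). Smooth muscle and pericyte markers, led by Acta2 and Tagln, had positive differences in 8 of 8 genes, with summed FPKM of 801 to 1116 with atorvastatin and 631 to 1188 with vehicle. That tally rests on single libraries: the median of 0.18 was 0.0112 without atorvastatin library 1 (4 of 8 positive), 0.0416 without vehicle library 1 (6 of 8) and -0.00854 without vehicle library 2 (4 of 8). The omission of atorvastatin library 2 gave 0.30, and that of vehicle library 3 gave 0.46. With all 6 libraries 2 of the 8 were higher at an unadjusted p under 0.05 in limma (3.13% of all genes). The count higher with no overlap was also 2 (5.53% of all genes). The endothelial markers, led by Lyve1 and Plvap, summed to 236 to 307 and 271 to 289 FPKM. Of these 8 genes, 1 was lower at an unadjusted p under 0.05 in limma (4.04% of all genes). It was Lyve1, the only 1 of the 8 with no overlap of the groups (lower in 8.85% of all genes). T cell markers, led by Cd2 and Trac, summed to 110 to 126 FPKM with atorvastatin and 126 to 147 FPKM with vehicle. Platelets carry much TGF-beta1 protein, and of their markers Pf4 was the only one tested, with a list sum of 6.19 to 9.32 FPKM with atorvastatin and 5.89 to 14.1 FPKM with vehicle. Glial and neuronal markers, led by Tubb3 and Uchl1, summed to 7.00 to 9.14 and 8.10 to 8.83 FPKM. The differences of B cell and of epithelial markers had the other sign. All 8 B cell markers had negative differences, with a median of -0.40, and 4 of them were lower at an unadjusted p under 0.05 in limma (4.04% of all genes) and 6 lower with no overlap (8.85% of all genes). All 7 tested epithelial markers had negative differences, with a median of -0.55. That median was -0.88 without atorvastatin library 2 and -0.30 without atorvastatin library 3. Vil1 and Krt20 fell below the filter. With no filter 1 of 9 epithelial markers was positive, Vil1 with 0.13, and the median was -0.52. Of 10 T cell markers 9 had negative differences, with a median of -0.12, which lay between -0.0499 without vehicle library 2 and -0.24 without vehicle library 3. The part of these cells and of handling in the differences of Smad7, Tgfbr1 and Itgav was not tested.

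Ratios within a library do not depend on how libraries are scaled. The ratios were chosen after the values were seen. Tgfbr2 over Tgfbr1, the type II over the type I receptor, was 2.33, 2.32 and 2.40 in the atorvastatin libraries, against 2.47, 3.22 and 3.35 in the vehicle libraries. The atorvastatin ratios lay within a narrow range below all vehicle ratios, with vehicle library 1 next to them (exact two-sided permutation p = 0.1, the smallest possible). Smad7 over Smad3, the inhibitor over the effector, was 1.38, 1.07 and 1.21 with atorvastatin, against 1.16, 0.321 and 0.278 with vehicle. Vehicle library 1 fell among the atorvastatin libraries, so the groups overlapped (exact permutation p = 0.2). Itgav over Itgb8 averaged 7.37 ± 1.07 (SD, n = 3) with atorvastatin and 5.93 ± 1.18 (SD, n = 3) with vehicle (exact permutation p = 0.3). Tgfb1 over Tgfb2 averaged 3.86 ± 0.171 (SD, n = 3) with atorvastatin and 4.98 ± 1.87 (SD, n = 3) with vehicle (exact permutation p = 0.4).

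**Figure D4:**
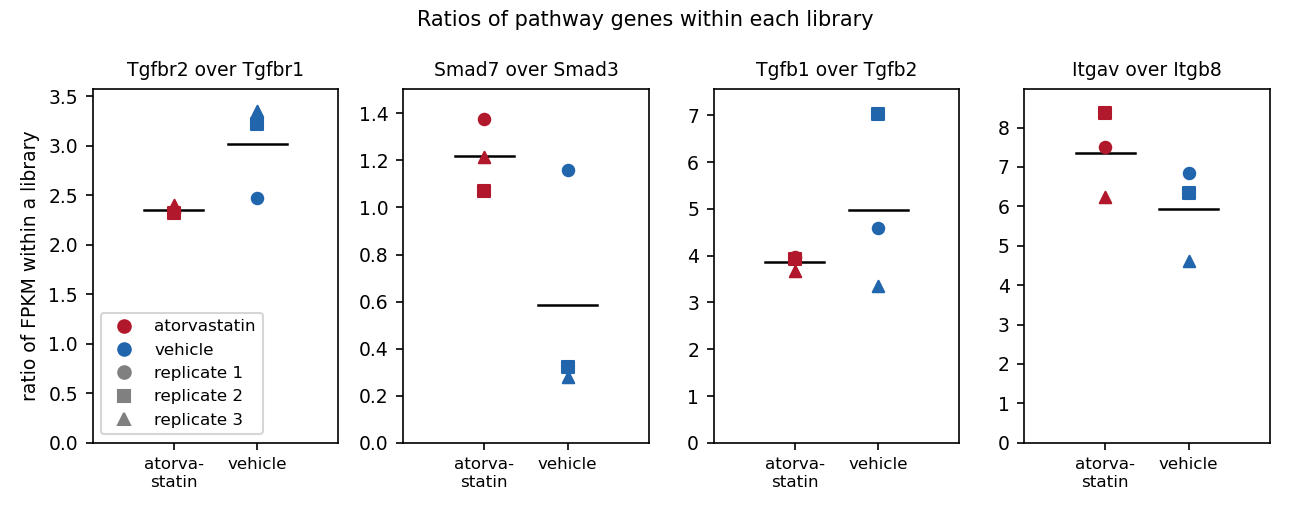
Ratios of FPKM of pairs of genes within each library, atorvastatin left and vehicle right, with the marker shape giving the replicate number and the bar the mean of 3 libraries. Vehicle library 1 (circle) lies closest to the atorvastatin libraries for Tgfbr2 over Tgfbr1 at 2.47 and among them for Smad7 over Smad3 at 1.16.

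Around the set, 88 further genes of the pathway in 7 lists were followed, of which 74 passed the filter. At an unadjusted p under 0.05 in limma there were 4 of them, 3 higher (Acvr1b, Fn1 and Inhbb) and 1 lower (Nrros), against 7.17% of all tested genes, and 0 passed over all genes. Of the 74, 58 had a positive difference, beside 47% of all tested genes. Their median was 0.17, beside the median of -0.02 over all genes. The 58 include Bmp3, which passed the filter through the atorvastatin libraries alone.

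Proteins that hold latent TGF-beta in the matrix or at the cell surface had 6 tested genes, 5 of them with a positive difference and a median of 0.23, which was 0.10 without atorvastatin library 1. Ltbp4, which anchors latent TGF-beta to the matrix, was the most abundant with 222 ± 42.5 FPKM with atorvastatin and 189 ± 28.2 FPKM with vehicle (SD, n = 3 each). Lrrc32 encodes GARP, which presents latent TGF-beta on regulatory T cells and other cells, and had 37.1 ± 7.82 and 31.2 ± 2.35 FPKM. Nrros, which does the same on macrophages and microglia, had 11.67, 11.69 and 13.01 FPKM with atorvastatin, against 15.85, 16.89 and 13.54 FPKM with vehicle. Every atorvastatin library was below every vehicle library, and the difference was -0.32 (SE 0.12, unadjusted p = 0.0338 and adjusted p = 0.692 in limma). The macrophage markers had positive differences in 9 of 9 tested genes, with a median of 0.26, but in 5 of 9 with a median of 0.0286 without vehicle library 1. Their part in the difference of Nrros was not tested.

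Genes that process or activate the ligand had positive differences in 9 of 9 tested genes, with a median of 0.25 and 0 at an unadjusted p under 0.05 in limma. Thbs1, the matrix protein thrombospondin, which can activate latent TGF-beta, had 322 ± 25.4 FPKM with atorvastatin and 274 ± 54.1 FPKM with vehicle (SD, n = 3 each), and Mmp2, a matrix protease, had 99.3 ± 19.2 and 79.9 ± 13.3 FPKM. Of the other partners of alpha-v, the integrin chain Itgb5 had 19.8 ± 1.82 and 16.1 ± 2.50 FPKM, Itgb1 had 83.6 ± 8.85 and 79.9 ± 14.2 FPKM, and Itgb3 had 15.7 ± 1.21 and 15.5 ± 3.26 FPKM, all 3 far above Itgb8 in every library. Itgb6, the epithelial partner that also activates TGF-beta, had at most 0.0700 FPKM with atorvastatin and at most 0.220 FPKM with vehicle. These 4 chains were named for their pairing with alpha-v, after their values were seen. Plg, also named after its values were seen, was listed at 0 in all libraries.

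Receptors of the related activin and BMP ligands, with the coreceptor endoglin (Eng), had positive differences in 7 of 7 tested genes and a median of 0.23, against 5 of 7 and a median of 0.0954 without vehicle library 2 and 5 of 7 and 0.15 without atorvastatin library 3. Eng had 40.2 ± 7.02 FPKM with atorvastatin and 32.8 ± 0.300 FPKM with vehicle (SD, n = 3 each), and Acvrl1, an endothelial type I receptor, 19.0 ± 4.11 and 18.8 ± 1.30 FPKM. Acvr1b, a type I receptor for activin that also phosphorylates Smad3, had 6.38, 5.27 and 5.69 FPKM with atorvastatin, against 4.59, 4.75 and 4.49 FPKM with vehicle. Every atorvastatin library was above every vehicle library, and the difference was 0.27 (SE 0.11, unadjusted p = 0.0390 and adjusted p = 0.692 in limma).

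Other ligands of the superfamily had 10 tested genes, 9 with a positive difference, and a median of 0.25, which was 0.39 without atorvastatin library 2. Bmp3, counted among those 9, was above 1 FPKM in the 3 atorvastatin libraries and below it in the 3 vehicle libraries. It passed the filter through the atorvastatin libraries alone, and it was named after its values were seen. With the filter set at a mean of at least 1 FPKM, which leaves Bmp3 out, 8 of 9 ligands were positive. Inhbb, which encodes the beta-B chain of activin, had 4.73, 3.35 and 3.93 FPKM with atorvastatin, against 3.02, 2.50 and 3.19 FPKM with vehicle, with a difference of 0.35 (SE 0.14, unadjusted p = 0.0416 and adjusted p = 0.692 in limma). Bmp4, the most abundant of them, had 16.68, 13.16 and 68.91 FPKM with atorvastatin, against 45.45, 52.73 and 65.50 FPKM with vehicle. Atorvastatin libraries 1 and 2 were low, and library 3 was the highest of all. Bmp5 had 23.1 ± 5.59 and 18.8 ± 4.28 FPKM (SD, n = 3 each).

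Smads and their cofactors had differences on both sides, 6 positive and 4 negative among 10, with a median of 0.06, which was 0.00153 without atorvastatin library 3 and 0.0964 without atorvastatin library 2. Tgif1, a corepressor, had 28.0 ± 4.54 FPKM with atorvastatin and 31.9 ± 5.94 FPKM with vehicle (SD, n = 3 each). Skil encodes SnoN, a repressor of Smads that TGF-beta induces as it does Smad7. It had 24.70, 32.07 and 34.85 FPKM with atorvastatin, against 30.77, 15.88 and 13.57 FPKM with vehicle. As with Smad7, vehicle library 1 was close to the atorvastatin libraries and vehicle libraries 2 and 3 were low, and the groups overlapped, with a difference of 0.65 (SE 0.30, limma adjusted p = 0.696). Without vehicle library 1 the difference of Skil was 0.99, and with libraries weighted by quality it was 0.05. Smad2, the partner of Smad3, had 2.56 ± 0.144 FPKM with atorvastatin and 3.51 ± 1.03 FPKM with vehicle (SD, n = 3 each) and no overlap of the groups, with a difference of -0.32 (SE 0.17, limma adjusted p = 0.696). It was named after its values were seen.

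Inhibitors of the receptors had 8 positive and 3 negative differences among 11 genes, with a median of 0.08 and 0 at an unadjusted p under 0.05 in limma. Their median was 0.0297 without vehicle library 1 and 0.17 without atorvastatin library 2. Ppp1r15a, which with Smad7 directs a phosphatase to the type I receptor, had 379 ± 107 FPKM with atorvastatin and 383 ± 113 FPKM with vehicle (SD, n = 3 each), and decorin (Dcn), which binds TGF-beta, 347 ± 28.2 and 354 ± 30.1 FPKM.

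Genes known to respond to TGF-beta had 24 tested members, 17 with a positive and 7 with a negative difference, and a median of 0.12. The median was 0.0425 without vehicle library 1 (14 positive), 0.0499 without atorvastatin library 1, 0.25 without atorvastatin library 2 and 0.31 without vehicle library 3. Fn1, which encodes fibronectin, had 106.68, 73.39 and 98.48 FPKM with atorvastatin, against 71.92, 69.47 and 60.45 FPKM with vehicle. Its groups did not overlap, and the difference was 0.45 (SE 0.18, unadjusted p = 0.0403 and adjusted p = 0.692 in limma). Ccn2, also called connective tissue growth factor and named after its values were seen, was lower in every atorvastatin library than in every vehicle library, with 51.6 ± 1.24 and 55.7 ± 2.17 FPKM (SD, n = 3 each) and a difference of -0.11 (SE 0.11, limma adjusted p = 0.821). Junb had 726 ± 119 FPKM with atorvastatin and 588 ± 45.6 FPKM with vehicle, and it also stands among the immediate early genes. The heavy chain gene of IgA, Igha, had 19033 ± 8485 and 18804 ± 2620 FPKM.

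**Figure D5:**
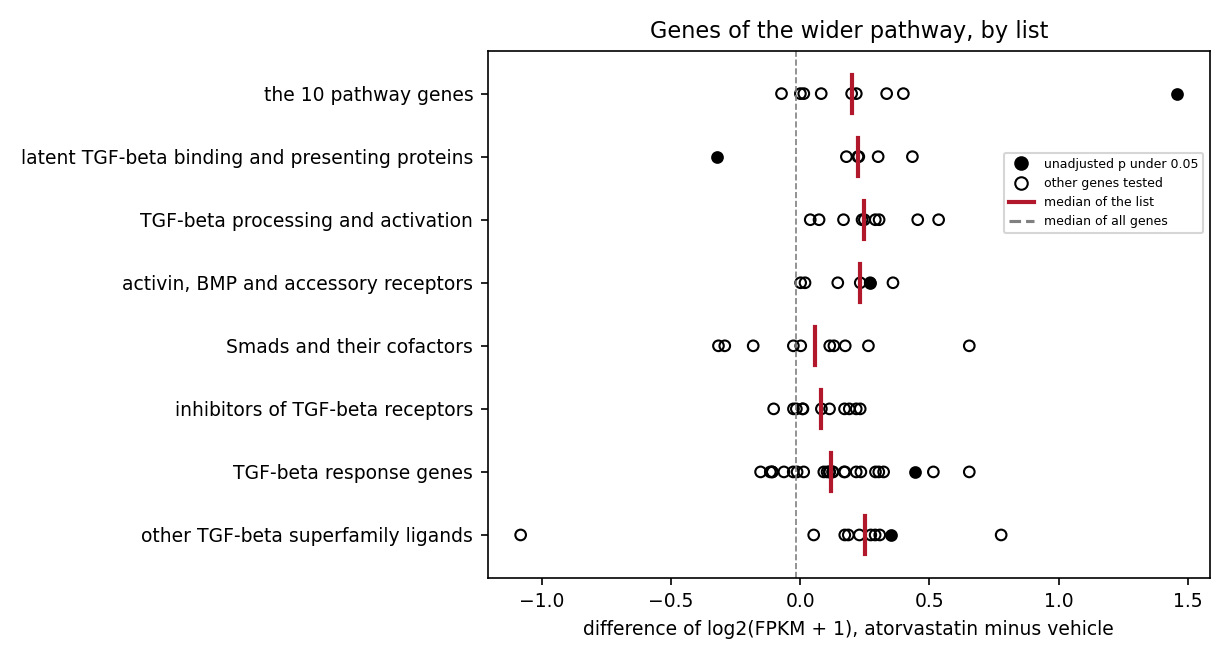
Differences of log2(FPKM + 1), atorvastatin minus vehicle, of the tested genes of the TGF-beta set and of 7 lists of the wider pathway, with filled points for genes at an unadjusted p under 0.05 in limma and a red bar at the median of each list. All 8 medians lie between 0.06 and 0.25, right of the median of all genes at -0.02 (dashed line), with all 6 libraries in the fit. Leaving out a library brought that of the Smads to 0.00153, that of the inhibitors to 0.0297 and that of the response genes to 0.0425.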

How the data were processed

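Per the labels' protocols, total RNA of colonic lamina propria cells was made into standard Illumina libraries, 3 of atorvastatin and 3 of vehicle. The submitters' processing notes name FastQC 0.11.2, Bowtie and build mm10; the quantifier, annotation and strand setting remain not given in the sources used here. The authors deposited FPKM with 2 decimals, from which fragment counts were not recovered, so depth is unknown and no counting interval is given. Symbols and positions came from GENCODE mouse release 21, whose start and end match 51957 of the 55401 IDs; 260 IDs had no symbol. Without strand, reads of Tgfb2, Tgfb3 and Itgav cannot be told from those of antisense genes that share exon bases, nor those of Tgfbr3 from an overlapping gene on its own strand; these genes reached at most 0.280 FPKM.

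Genes that reached 1 FPKM in 3 or more libraries entered a limma-trend fit (limma 3.58.1, R 4.3.3) of log2(FPKM + 1), a scale that understates changes at low levels, with Benjamini-Hochberg adjustment over all 13590 genes. The fit was tested on simulated data. Quantities outside that fit used an exact two-sided permutation test over libraries (scipy 1.17.1). Named are the 10 genes, the 2 most abundant of each list and pathway genes at an unadjusted p under 0.05, with other names marked as chosen after their values were seen. The genes and lists were chosen with earlier results of these data known. Alternatives covered the pseudocount, the filter, scaling, variance model, transcript length, a block for replicate number and the omission of each library. Promoter windows from RefSeq were searched for 7 of the 10 genes. Smad7, on chromosome 18, was left out of that search.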

Additional observations from a re-analysis of the deposited data

How the results depend on the processing

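Under 18 alternatives 0 genes of the TGF-beta set passed a false discovery rate of 0.05 in limma. Smad7, Tgfbr1, Itgav, Smad3 and Tgfbr3 kept a positive difference in all of them. Of 171 alternative values for the 10 genes, 11 turned the sign, all at differences near 0: Tgfb1 was 0.000399 with array weights and -0.157 to 0.0329 with single libraries left out, and Tgfbr2 -0.0294 with the length trend removed and -0.0563 to 0.0825 with single libraries left out. Leaving out single libraries gave -0.00947 to 0.395 for Tgfb2, -0.0443 to 0.0468 for Tgfb3 and -0.0101 to 0.173 for Itgb8. Among other named genes, Ppp1r15a was 0.0541 with equal sums, 0.0589 with equal sums without immunoglobulin and mitochondrial genes, 0.0241 with array weights, 0.0392 with the length trend removed and -0.229 to 0.208 without single libraries. Dcn was 0.0429, 0.0477 and 0.0594 in the first 3 of these settings and -0.0656 to 0.0432 without single libraries. Igha was 0.00614 and 0.0110 in the first 2 and -0.403 to 0.187 without single libraries, and Acvrl1 was -0.0517 with array weights and -0.137 to 0.166 without single libraries.

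Over all genes 0 passed, against 4 with array weights and 0 to 2 without single libraries. Unadjusted p-values under 0.05 numbered 974 of 13590 tested genes. They numbered 1761 of 32406 with no filter, 571 of 7344 at 5 FPKM or more and 453 of 13590 with equal sums. Of 13590 they were 3413 with array weights, 1064 with median-of-ratios scaling and 1071 with equal sums without immunoglobulin and mitochondrial genes. With the length trend removed they were 1023 of 13573, and without single libraries 459 to 1138 of 13289 to 13379. Of the set 1 gene had such a p, against 2 with median-of-ratios scaling or equal sums without immunoglobulin and mitochondrial genes, 3 with the length trend removed and 1 to 3 without single libraries. With array weights the count was also 1, but the gene was Smad3 and not Smad7. Of the wider pathway 4 did, against 2 at 5 FPKM or more, 1 with equal sums, 11 without immunoglobulin and mitochondrial genes, 38 with array weights and 0 to 11 without single libraries. The cause was not tested.

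Same-numbered libraries had correlations of -0.11, 0.14 and -0.02 between their deviations from the group means. Those of libraries with unlike numbers ran from -0.16 to 0.19. With 3 libraries per group these values cannot decide whether the numbers mark pairs, and the labels do not say. With the replicate number as a block 0 genes passed, 852 had an unadjusted p under 0.05, 1 of them in the set, and 5 in the wider pathway. Replicates are 3 per group and the depth is unknown, which limits the precision to the intervals printed for each gene.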
